A study of Arabidopsis thaliana with 8 samples.

Results

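The above-ground part of 21-day plants was compared with whole 2-day plants in total RNA of Arabidopsis thaliana. The comparison takes 4 of the 8 arrays of the series, 2 labelled 21DAG and 2 labelled 2DAG (days after germination), chosen by label alone, and the design text names it as one of its comparisons. Both groups are ecotype Columbia-0 (Col-0) with no treatment or transgene given. Seeds were surface sterilised, chilled in the dark, and raised on GM medium plates under long days. The 21DAG samples are shoots without roots, and the 2DAG samples are whole seedlings with roots. The series states 2 biological replicates per group and does not say how many plants were pooled or whether plates were shared, so p-values measure the spread between these samples. The other 4 arrays hold young and mature leaves of 21-day plants and enter the fit, where they share its estimate of spread.

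Mineral nutrients enter a plant mainly through transporters at the root surface, and other members of the same families load the vessels or serve leaf cells and vacuoles. Hormone levels are set by families of synthesis and breakdown enzymes whose members are used in different organs, and are read by small families of receptors. Antioxidant enzymes likewise come as isoforms of the cytosol, the chloroplast and other compartments.

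A level below is the log2 of a gene's processed signal over the 75th percentile of the array's probes, so a level of 0 equals that percentile. Levels of different genes rest on different probes and are not set against each other. Rose, fell and changed mean a Benjamini-Hochberg adjusted p under 0.05 in limma over all 20621 loci tested, and a difference is the log2 level at 21DAG minus that at 2DAG, with the standard error of the fit. In all, 75.1% of loci changed, 34.8% rose and 40.3% fell. At least 2-fold were the rises of 15.0% of loci and the falls of 21.1%, and on 88.5% of loci the 2 groups of arrays did not overlap. The 2-fold shares are the background for every count of list members below, and several lists lie near them. Likewise, 88.5% is the background for every statement below that groups did not overlap, so that alone sets no gene apart. The median difference over all loci was -0.07. Replicates correlated across loci at 0.995 (21DAG) and 0.996 (2DAG), and genes are not independent replicates. The 4 arrays share 1 slide, where 2DAG holds positions 1 and 2 and 21DAG positions 3 and 4, so position and group cannot be told apart. Of the probes, 72.4% and 72.1% were well above background at 21DAG, and 74.6% on both arrays at 2DAG. A gene well above background on neither array of a group has only a bound there, and its fold is given as at least N-fold. Of the 3103 rises and 4358 falls of at least 2-fold, 366 and 1094 rest on such a bound, which lies under 2-fold for 78 and 156 of them.

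Markers of the organs named by the labels come first, as a description and not as a test. Of 20 root cell markers, all fell, 17 at least 2-fold, and 13 of them were well above background only at 2DAG. A gene bright only at 2DAG passes the filter through that group and can hardly do other than fall. The lists were also chosen with earlier results of these data known. COBL9, a root hair gene, had levels of -7.05 and -7.36 in the 21-day aerial part, against 0.56 and 0.58 in 2-day plants, and was at least 193-fold lower. The groups lay far apart. CASP1 and CASP2, which build the Casparian strip of the endodermis, stayed well above background in the aerial part, and the CASP genes are close relatives whose probes may share signal. SHR and SCR, which pattern the ground tissue of root and shoot, fell by only 0.43 and 0.65. All 7 green shoot markers rose, 4 of them at least 2-fold, or 2 without 2DAG replicate 1, with quantile or with spike-in scaling. The smaller rises were less firm: GLK2 (0.64) lost its call without 21DAG replicate 1, without either 2DAG array, with no filter and with spike-in scaling. CAB1 (0.38) lost it with quantile and spike-in scaling, and RBCS1A (0.32) with both of these and without 21DAG replicate 2. All 7 seed markers fell at least 2-fold, among them the 2S albumins SESA3 and SESA4, which were at least 58.4-fold and 17.7-fold lower. OLEO1 and ABI5 each lost the call without any 1 of the 4 arrays. Transcripts of root and seed genes are thus a measured part of the 2DAG samples. Age and organ cannot be told apart in any value below, nor can fewer cells of a type and less RNA per cell.

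The 21-day samples also hold more than leaf blades. All 5 tested flower organ markers rose. AP3, a petal and stamen identity gene, had levels of -2.90 and -2.58 in the aerial part, against -6.88 and -6.98 in 2-day plants, where it was not well above background, and was at least 18.2-fold higher. PI, its partner, rose by 4.31 ± 0.17. Both genes were higher on the 21DAG arrays than on every leaf array, where PI was at most -4.26. Of the 3073 genes that rose at least 2-fold and were well above background on both 21DAG arrays, 99 (3.22%) were so on no leaf array, against 374 of 19157 (1.95%) over all loci. The leaf arrays lie on another slide, so slide and leaf group cannot be told apart, and no test was run across them. They also detected less: 69.7% and 69.2% of probes were well above background in young leaves and 66.7% on both mature leaf arrays. At 21DAG the shares were 72.4% and 72.1%, so absence from the leaf arrays may also reflect lower detection there. Among the 12 of these 99 with the highest level at 21DAG were the meristem gene STM (1.91 ± 0.33), the boundary gene LOB (2.21 ± 0.25), LSH7 (3.64 ± 0.32) and GASA5, a gibberellin-regulated peptide gene. GASA5 stood at -1.80 and -1.88 in the aerial part, against -5.03 and -5.29 in 2-day plants, with no overlap. THI2.1, a thionin, and OSM34, an osmotin-like protein, were at least 31.8-fold and 40.8-fold higher. Of the genes that fell at least 2-fold and were still well above background at 21DAG, 184 (5.96%) were so on no leaf array, among them KNAT1, a meristem and stem homeobox gene (-2.22 ± 0.32), and CYP78A5 (-1.32 ± 0.11). The 12 of each direction were taken by their level at 21DAG, but the genes named here were picked from them and are not the highest. AT4G22505 and AT3G05727 led the rises by level, and AT2G38380 and CDEF1 the falls.

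**Figure D1:**
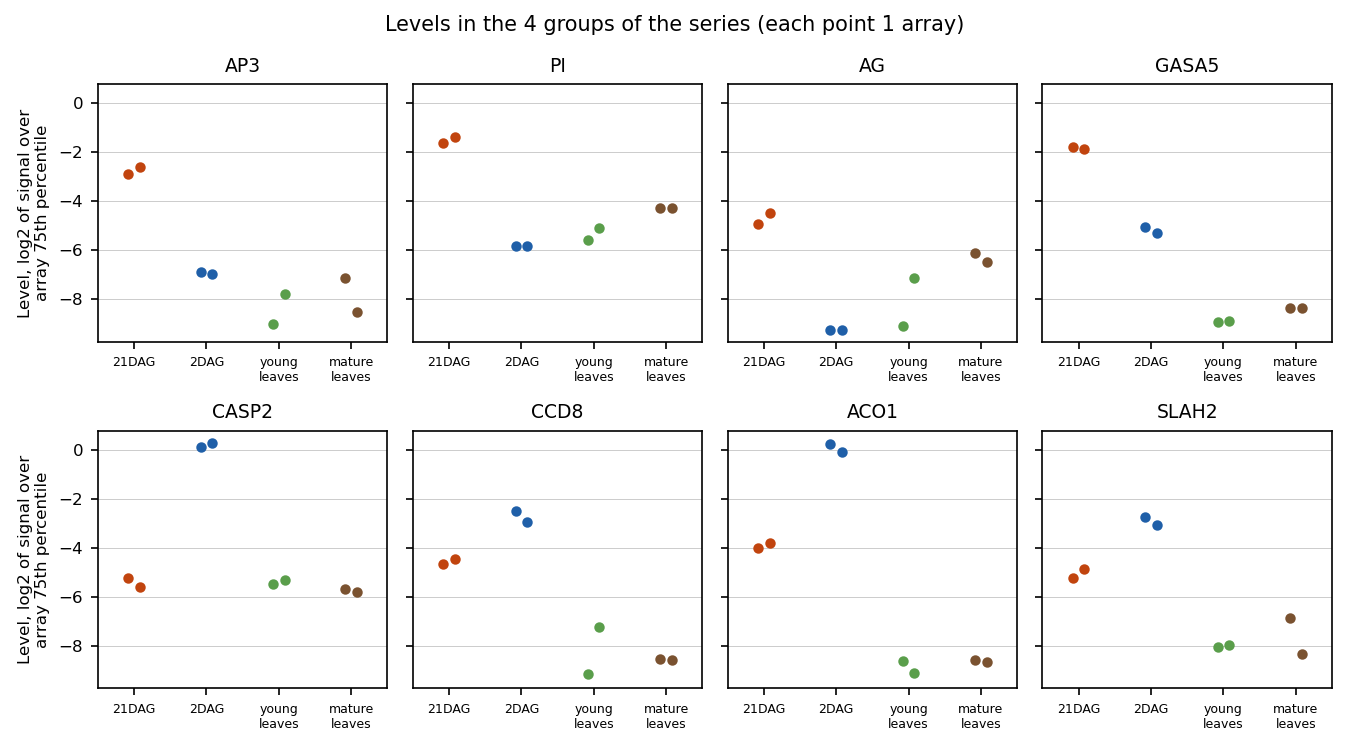
Level (log2 of signal over the array 75th percentile) of 8 genes on each of the 8 arrays, 1 point per array, in the groups 21DAG, 2DAG, young leaves and mature leaves. The flower genes AP3 and PI and the peptide gene GASA5 are highest at 21DAG, while CASP2, CCD8, ACO1 and SLAH2 are highest at 2DAG; the last 3 stay higher at 21DAG than in either leaf group.

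Among carriers for nitrogen, 14 were tested, of which 2 rose and 4 fell at least 2-fold, the rises being near the 15.0% of all loci. Another 5, NRT2.1 among them, were not well above background on both arrays of any group. AMT1;3, a root ammonium uptake transporter, had levels of -5.62 and -5.91 in the aerial part, against -1.92 and -2.03 in 2-day plants. It fell 13.8-fold (-3.78 ± 0.25), and the groups did not overlap. The nitrate transceptor NRT1.1 stood at 0.61 and 0.40 in the aerial part, against 2.36 and 2.52 in 2-day plants, a difference of -1.93 ± 0.10. The urea carrier DUR3 (-3.04 ± 0.15) and WR3, the partner protein of the NRT2 nitrate carriers (-2.63 ± 0.12), fell as well. In the other direction went NRT1.5, which loads nitrate into the xylem in roots: its levels were 0.84 and 0.28 in the aerial part, against -2.07 and -1.89 in 2-day plants. AMT1;4 rose by 3.22 ± 0.26. AMT1;1 rose by less than 2-fold (0.60 ± 0.15), and for AMT1;2 the groups overlapped (0.12 ± 0.47, adjusted p = 0.82 in limma).

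Sulfate carriers changed in both directions. Of 32 genes of sulfate uptake and assimilation, 7 rose and 7 fell at least 2-fold, or 4 rose with spike-in scaling. The share that fell was near the 21.1% of all loci. SULTR1;2, the main root uptake carrier, had levels of -2.28 and -2.32 in the aerial part, against 0.50 and 0.31 in 2-day plants, a 6.49-fold fall. SULTR1;1, the other root uptake carrier, was at least 10.1-fold lower. For both, every 21DAG array was lower than every 2DAG array. SULTR3;2 fell by 5.69 ± 0.39. The vascular carrier SULTR2;1 stood at 2.59 and 2.37 in the aerial part, against -1.08 and -0.72 in 2-day plants, a 10.4-fold rise. SULTR3;1, a chloroplast carrier, stood at 1.62 and 0.91, against -3.90 and -3.62 in 2-day plants (5.03 ± 0.36, adjusted p = 6.15e-05 in limma). SULTR3;5 (2.6 ± 0.26) and the vacuolar exporter SULTR4;2 (1.41 ± 0.10) also rose. Downstream, the changes were smaller. APS1 and APK1, which activate sulfate, rose by 1.15 and 1.03, while the reductases APR2 (0.19 ± 0.31) and APR3 (-0.12 ± 0.21) and the glutathione synthesis genes GSH1 (-0.15 ± 0.08) and GSH2 (0.22 ± 0.14) did not pass the test. LSU1, a marker of low sulfur, fell by 2.13, while its relative LSU2 had a difference of 0.05 ± 0.24.

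**Figure D2:**
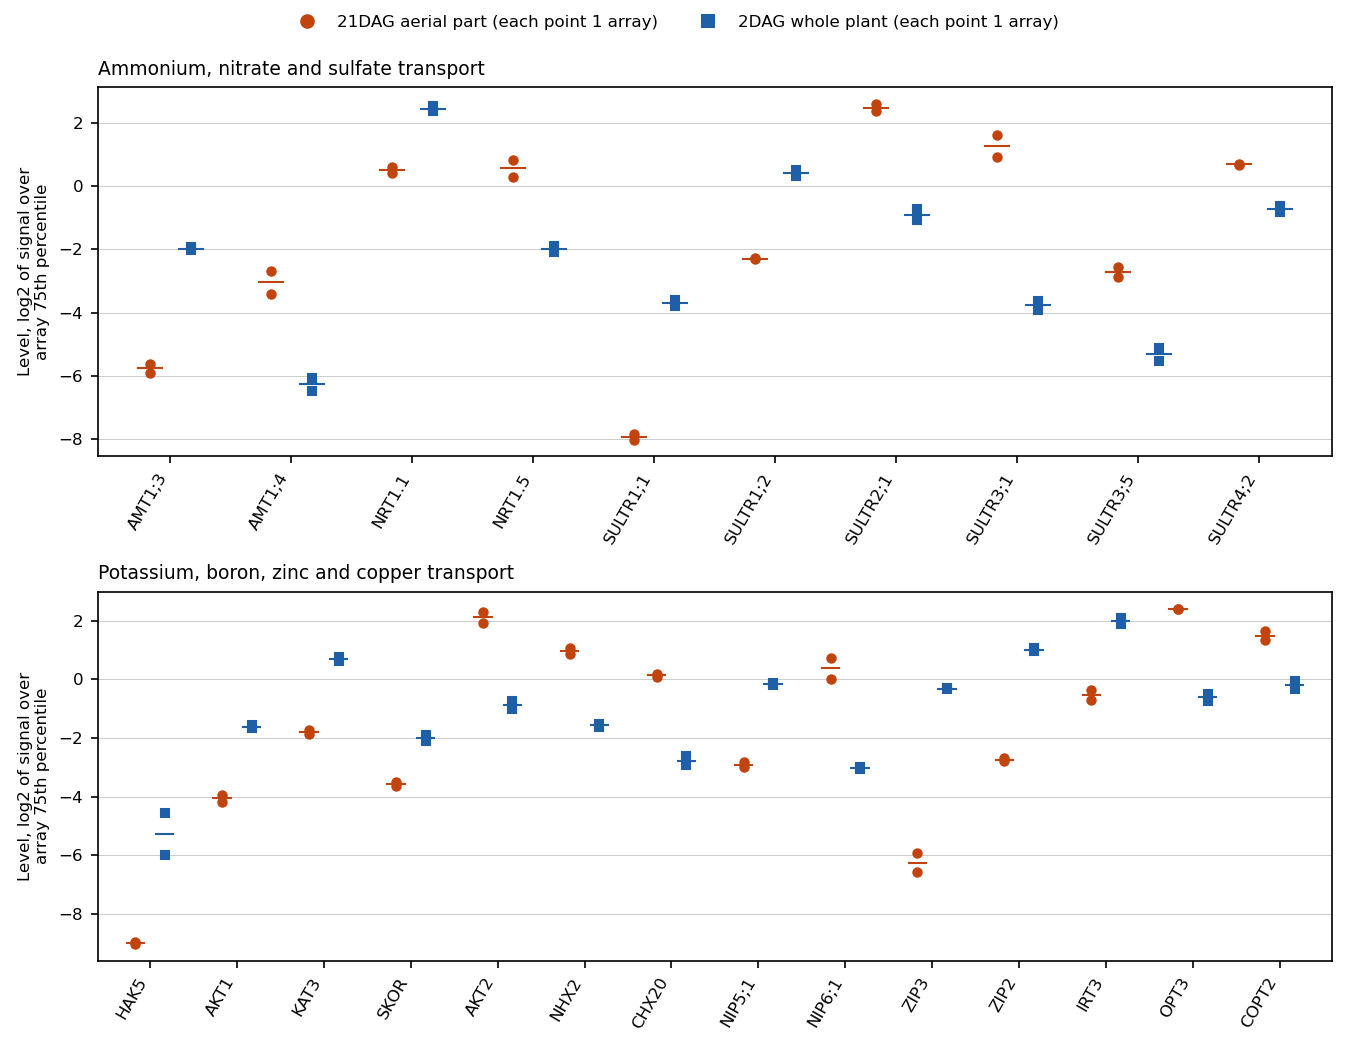
Level (log2 of signal over the array 75th percentile) of carriers for ammonium, nitrate and sulfate (upper panel) and for potassium, boron, zinc, iron and copper (lower panel) on each array; circles are 21DAG, squares 2DAG, and short lines group means of 2 arrays. Root uptake carriers such as AMT1;3, SULTR1;2, AKT1 and NIP5;1 are lower at 21DAG, and SULTR2;1, AKT2 and NIP6;1 are higher. No gene shown has overlapping groups, where 88.5% of all loci have none.

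Potassium channels, too, changed in both directions. Of 22 potassium and sodium transport genes, 7 rose and 5 fell at least 2-fold, or 3 fell with normexp background correction. Here too the share that fell was near the 21.1% of all loci. AKT1, the root potassium inward channel, had levels of -4.18 and -3.95 in the aerial part, against -1.57 and -1.67 in 2-day plants (-2.45 ± 0.21). KAT3, which forms channels with AKT1, fell by 2.5 ± 0.09, the xylem-loading channel SKOR by 1.55 ± 0.10, and the high-affinity carrier HAK5 was at least 3.36-fold lower. The groups did not overlap for any of these 4 genes, as for 88.5% of all loci. AKT2, the phloem channel, stood at 2.31 and 1.93 in the aerial part, against -1.02 and -0.72 in 2-day plants, a 7.96-fold rise. Of channels and carriers known from guard cells, the inward channel KAT1 (1.39 ± 0.09), the outward channel GORK (1.37 ± 0.16) and the exchanger CHX20 (2.91 ± 0.12) rose, while the inward channel KAT2 fell by 0.83. NHX2, a vacuolar exchanger, rose by 2.55 ± 0.11.

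Boron, zinc and copper genes gave 11 rises and 10 falls of at least 2-fold among 37 tested. NIP5;1, the boric acid channel of the root surface, had levels of -3.00 and -2.84 in the aerial part, against -0.13 and -0.19 in 2-day plants. NIP6;1, the related channel of stem nodes, had levels of 0.73 and 0.03, against -3.07 and -2.98 in 2-day plants. The pair thus differed by -2.76 ± 0.08 and 3.41 ± 0.43, in opposite directions with no overlap of groups. The boron exporter BOR2 fell by 2.95 ± 0.15, while BOR1 rose by only 0.30. Among zinc carriers ZIP3 stood at -5.95 and -6.56 in the aerial part, against -0.34 and -0.29 in 2-day plants, and ZIP2 (-3.77 ± 0.09), IRT3 (-2.55 ± 0.20) and ZIP9 (-2.13 ± 0.20) fell with it. ZIP6 rose by 1.35, the zinc pump HMA2 by 2.24, and ZIP7 was at least 7.04-fold higher. Copper carriers of the plasma membrane rose together, COPT1 by 1.36, COPT6 by 1.37 and COPT2 by 1.68, while the vacuolar COPT5 fell by 0.43. The phloem carrier OPT3 stood at 2.4 and 2.43 in the aerial part, against -0.75 and -0.48 in 2-day plants (3.03 ± 0.15). SPL7, the regulator of copper response, had the same mean level in both groups (0.00 ± 0.07, adjusted p = 0.99 in limma).

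Phosphate starvation genes gave 1 rise and 4 falls of at least 2-fold among 16, or 2 rises with quantile scaling. That share of falls was near the 21.1% of all loci. RNS1, a secreted ribonuclease, had levels of -5.27 and -6.80 in the aerial part, against 2.45 and 2.21 in 2-day plants, so that both 21DAG arrays were far lower. WRKY75 fell by 3.07 ± 0.34 and the acid phosphatase PAP10 by 1.28 ± 0.08. The phosphatase gene PS2 fell by 1.66 ± 0.49, a call lost without any 1 of the 4 arrays. SPX1 (-0.04 ± 0.11), SPX2 (-0.13 ± 0.07) and SPX3 (0.00 ± 0.50), sensors that are induced when phosphate is short, did not pass the test. SQD2, for sulfolipid synthesis, rose by 1.51.

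Sugar transport genes, 29 in number, were split into 7 rises and 8 falls of at least 2-fold. CWINV1, the cell wall invertase that cleaves sucrose outside the cell, had levels of -5.42 and -5.16 in the aerial part, against 1.23 and 1.27 in 2-day plants, a 93.0-fold fall. GPT2, which brings glucose phosphate into plastids, fell by 5.87 ± 0.21, and the sucrose carrier SUC5 was at least 22.3-fold lower. SUC1, a close relative of SUC5, fell by 1.91. No 21DAG array reached the 2DAG levels of these 4 genes, and 88.5% of all loci had no overlap of groups. PPT2, an importer of phosphoenolpyruvate into plastids, stood at 1.07 and 0.64 in the aerial part, against -4.41 and -3.79 in 2-day plants (4.96 ± 0.31). The hexose carrier STP1 rose by 2.13 ± 0.08, the plastid exporter of triose phosphate TPT by 1.46 ± 0.09, and SUC2, which loads sucrose into the phloem, by 1.22 ± 0.11.

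Proton pumps and anion channels gave 6 rises and 4 falls of at least 2-fold among 20, or 7 falls with spike-in scaling and 2 with normexp. Falls were thus near their share of all loci (21.1%). AHA2, the main root proton pump, had levels of 0.36 and 0.37 in the aerial part, against 3.1 and 2.89 in 2-day plants (-2.63 ± 0.09). AHA7 fell by 4.25 ± 0.29 and AHA3 rose by 1.81 ± 0.09, while AHA1 differed by 0.05 ± 0.10. The guard cell anion channel SLAC1 stood at -2.54 and -2.25 in the aerial part, against -5.44 and -5.52 in 2-day plants, and ALMT12, another guard cell channel, rose by 1.79. The tonoplast malate carrier TDT rose by 1.77 ± 0.24.

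Of 36 auxin genes, 4 rose and 15 fell at least 2-fold, with a median difference of -0.61. With spike-in scaling 1 rose 2-fold. PIN2, the efflux carrier of the root epidermis, had levels of -7.77 and -7.76 in the aerial part, against -1.08 and -0.94 in 2-day plants, and was at least 64.6-fold lower. ABCB4, a root auxin transporter, fell by 4.73 ± 0.15, and the influx carrier LAX3 by 2.11 ± 0.09. PIN6 (1.35 ± 0.23), PIN7 (1.08 ± 0.09), ABCB1 (1.08 ± 0.08) and PIN4 (1.02 ± 0.09) rose, and LAX1 and LAX2 by 0.93 and 0.88. Of the YUC enzymes, which make auxin, YUC3 fell by 3.33 ± 0.12, YUC8 by 2.72 ± 0.58 and YUC9 by 2.02 ± 0.46, and YUC5 was at least 2.48-fold lower. YUC2 rose by 0.65, and TAA1, which acts before YUC, fell by 2.28. The 6 GH3 genes of the list, which encode enzymes that conjugate auxin, all fell. GH3.3 had levels of -2.71 and -2.79 in the aerial part, against 1.2 and 1.26 in 2-day plants, without overlap. The receptor gene TIR1 differed by 0.02 ± 0.10.

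Cytokinin genes gave 3 rises and 16 falls of at least 2-fold among 33 and a median of -0.74. Rises numbered 1 with spike-in scaling, and falls 6 with normexp background correction. IPT5, for the first step of cytokinin synthesis, had levels of -6.74 and -6.71 in the aerial part, against -2.19 and -2.51 in 2-day plants, a 20.7-fold fall. LOG2 and LOG3, which release the active bases, were at least 4.20-fold and 4.99-fold lower, and LOG7 fell by 2.12 ± 0.12. CYP735A1, which makes trans-zeatin forms, was at least 4.10-fold lower, and ABCG14, which loads cytokinin into the xylem, fell by 1.94 ± 0.18. AHP1, a phosphotransfer protein, stood at -0.01 and -0.22 in the aerial part, against 3.02 and 2.89 in 2-day plants. Against these went CKX4, a cytokinin oxidase, at -2.41 and -2.29 in the aerial part, against -5.78 and -6.06 in 2-day plants (3.57 ± 0.15). CKX6 (1.13 ± 0.11), the receptor AHK3 (1.11 ± 0.09) and IPT3 (0.89 ± 0.12) rose too.

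Abscisic acid (ABA) genes numbered 35 tested, with 11 rises and 9 falls of at least 2-fold (5 falls with normexp) and a median of 0.59. The receptors moved in both directions. PYL6 had levels of -4.17 and -3.71 in the aerial part, against 0.19 and -0.39 in 2-day plants, and PYL4 had -0.20 and -0.14, against 2.28 and 2.27 in 2-day plants. PYL1, PYL5, PYL2 and PYR1 fell by 1.54, 1.45, 1.01 and 0.63. PYL7 stood at 0.82 and 0.75 in the aerial part, against -2.10 and -1.74 in 2-day plants (2.71 ± 0.12), and PYL9 rose by 0.96 ± 0.07. In none of these 8 did the groups overlap, which held for 88.5% of all loci. The phosphatases that the receptors inhibit leaned upward: HAI2 rose by 3.38 ± 0.15, PP2CA by 1.99 ± 0.13, ABI2 by 1.33 ± 0.08, HAI1 by 1.09 ± 0.30 and ABI1 by 0.73 ± 0.07. HAB1 did not pass (0.59 ± 0.29), and HAI3 was at least 2.13-fold lower. For synthesis, NCED3 had levels of -1.97 and -1.99 in the aerial part, against -4.58 and -4.05 in 2-day plants, while NCED5 and NCED9 were at least 4.97-fold and 4.01-fold lower. ABA1, the zeaxanthin epoxidase, rose by 2.41 ± 0.19. The breakdown enzymes also changed in both directions. CYP707A1 fell by 3.99 ± 0.22 and CYP707A3 by 0.97 ± 0.13, CYP707A2 rose by 2.64 ± 0.23, and CYP707A4 was at least 13.2-fold higher.

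**Figure D3:**
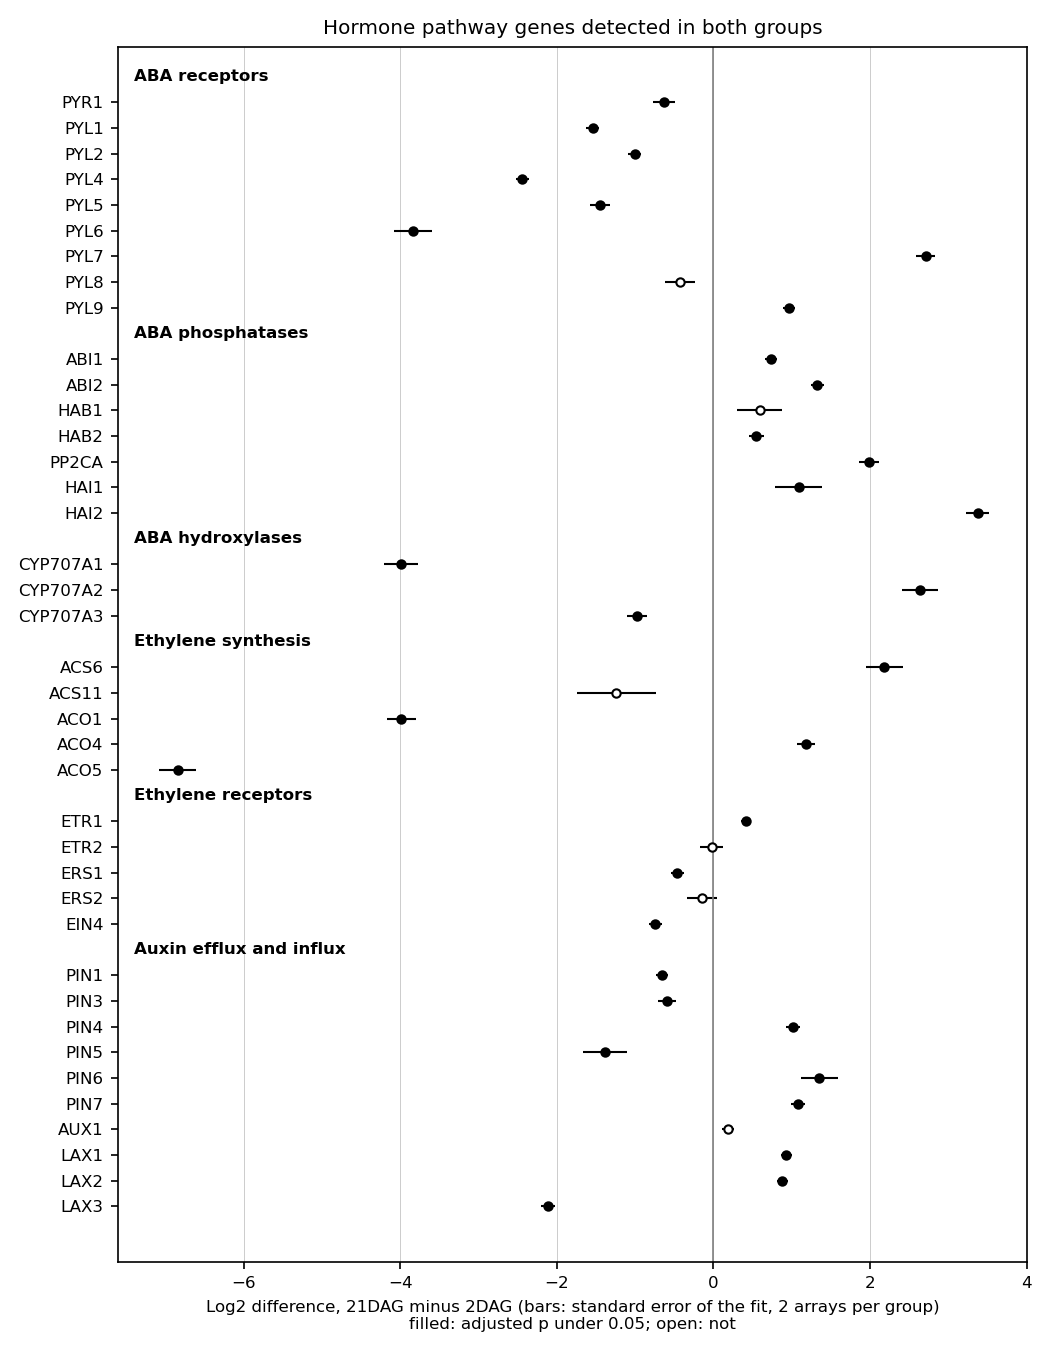
Log2 difference, 21DAG minus 2DAG, of abscisic acid (ABA), ethylene and auxin genes well above background in both groups; bars are standard errors of the fit with 2 arrays per group, filled points have an adjusted p under 0.05 and open points do not. ABA receptors, ABA hydroxylases and ACC oxidases each have members on both sides of 0, and ethylene receptors lie within 0.74 of 0.

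Ethylene synthesis changed by isoform, while its receptors moved little. Of 26 genes, 5 rose and 6 fell at least 2-fold, or 2 and 3 with normexp background correction. These shares were not far from those of all loci (15.0% and 21.1%). ACO5, an ACC oxidase for the last step, had levels of -4.19 and -4.66 in the aerial part, against 2.63 and 2.21 in 2-day plants (-6.84 ± 0.24). ACO1 fell by 3.98 ± 0.18, whereas ACO4 rose by 1.19 ± 0.12. Of the ACC synthases, ACS7 was at least 18.6-fold, ACS9 at least 8.39-fold and ACS2 at least 4.72-fold lower. ACS6 stood at -0.13 and 0.08 in the aerial part, against -2.13 and -2.28 in 2-day plants, and ACS4 was at least 7.35-fold higher. ETR1 rose by 0.42, ERS1 and EIN4 fell by 0.46 and 0.74, and ETR2 (-0.02 ± 0.15) and ERS2 (-0.15 ± 0.19) did not pass. The transcription factors EIN3 and EIL1 rose by 0.87 and 0.80, and their target ERF1 by 2.01 ± 0.13.

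Gibberellin, brassinosteroid and strigolactone genes gave shorter accounts. Of 20 gibberellin genes, 5 rose and 4 fell at least 2-fold, the falls being near the 21.1% of all loci. GID1C, a receptor, rose by 1.37 ± 0.09 and GID1B, another, fell by 1.31 ± 0.09; the repressor GAI rose by 1.29 ± 0.16 while RGL1, RGL2 and RGL3 fell by 0.97, 0.89 and 0.70. GA2, for an early synthesis step, rose by 1.52, and GA3, for a later one, fell by 1.46. Of 20 brassinosteroid genes, 3 rose and 3 fell at least 2-fold, or 3 and 0 with normexp. The share that rose was near the 15.0% of all loci. CPD, a synthesis P450, had levels of 4.01 and 3.98 in the aerial part, against 1.55 and 1.72 in 2-day plants, and DWF4, another, had -0.67 and -0.55, against 0.57 and 0.15 in 2-day plants. Those 2 enzymes of 1 pathway thus went apart, by 2.36 ± 0.08 and -0.97 ± 0.15. The response factor BES1 rose by 1.59 ± 0.15 and the receptor BRL1 by 2.21 ± 0.10, while BRI1 rose by 0.57 and BZR1 differed by 0.07 ± 0.07.

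Of 11 strigolactone and karrikin genes, 5 rose and 2 fell at least 2-fold, the falls being those of CCD8 and MAX1. CCD8, for strigolactone synthesis, lost its call without any 1 of the 4 arrays, and MAX1 lost it without 21DAG replicate 2 or without either 2DAG array. SMXL8, a repressor that strigolactone signalling removes, had levels of -1.28 and -0.87 in the aerial part, against -5.39 and -5.53 in 2-day plants (4.38 ± 0.33). SMXL7 rose by 1.66 ± 0.10, SMXL6 fell by 0.33 ± 0.11, and BRC1, which restrains bud growth, was at least 2.06-fold higher. D27 (1.89 ± 0.15) and MAX2 (1.09 ± 0.14) rose, and the receptors D14 (0.36 ± 0.09) and KAI2 (0.44 ± 0.09) rose by less than 2-fold.

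Antioxidant enzymes changed in opposite directions by isoform. Of 11 genes of superoxide dismutases and catalases, 0 rose and 4 fell at least 2-fold, and 2 rose and 6 fell in all. CSD1, the cytosolic copper/zinc dismutase, had levels of 0.93 and 0.91 in the aerial part, against 4.04 and 3.59 in 2-day plants, a 7.44-fold fall. CSD2, the chloroplast copper/zinc enzyme, had 0.21 and 0.06 in the aerial part, against 2.69 and 2.43 in 2-day plants, a 5.36-fold fall. The peroxisomal CSD3 rose by 0.72 ± 0.07, so the 3 copper/zinc enzymes did not move together. Transcripts of CSD1, CSD2 and of CCS, the copper chaperone of these enzymes, are all known targets of miR398. CCS differed by 0.19 ± 0.07 (adjusted p = 0.048 in limma), a call that was lost without any 1 array and turned to -0.095 with spike-in scaling. It was also lost with no filter, as the mean over probes and in the fit on the 4 arrays alone. The plastid iron enzymes FSD2 and FSD3 fell by 2.07 ± 0.14 and 1.40 ± 0.08, and FSD1 by 0.76 ± 0.12. MSD1, of mitochondria, fell by 0.23, a call lost without 21DAG replicate 2 or 2DAG replicate 1. Quantile scaling, median scaling, the deposited values and the fit on the 4 arrays alone also lost it. The catalases CAT1 (0.38 ± 0.25), CAT2 (0.14 ± 0.25) and CAT3 (0.32 ± 0.20) did not pass. CAT1 and CAT3 passed as the mean over their probes (0.31 and 0.65, adjusted p = 0.038 and 0.0392 in limma), and the sign of CAT2 turned without 21DAG replicate 1, without 2DAG replicate 1 and with spike-in scaling.

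In the ascorbate and glutathione list, 4 of 28 rose and 7 fell at least 2-fold. Both shares were near those of all loci (15.0% and 21.1%). APX1, the cytosolic ascorbate peroxidase, had levels of 3.51 and 3.42 in the aerial part, against 5.96 and 6.14 in 2-day plants (-2.59 ± 0.13). SAPX, the stromal enzyme of chloroplasts, fell by 2.43 ± 0.14. TAPX, the thylakoid enzyme of the same family, stood at 3.01 and 2.89 in the aerial part, against 1.23 and 1.58 in 2-day plants (1.55 ± 0.12). The groups of arrays were separate for these 3 peroxidases, as for 88.5% of all loci. Monodehydroascorbate reductases MDAR2 and MDAR6 each fell by 2.07, and MDAR3 was at least 90.0-fold lower. MDAR4 rose by 0.54 and MDAR1 did not pass (-0.18 ± 0.08). GPX1, a plastid glutathione peroxidase, had levels of 5.31 and 5.05 in the aerial part, against 1.54 and 1.93 in 2-day plants, a 10.9-fold rise. The other plastid form, GPX7, rose by 1.74 ± 0.29, while GPX2 and GPX8 fell by 1.49 and 0.98. The plastid glutathione reductase GR rose by 1.02 ± 0.07 and the cytosolic GR1 fell by 0.88 ± 0.22.

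**Figure D4:**
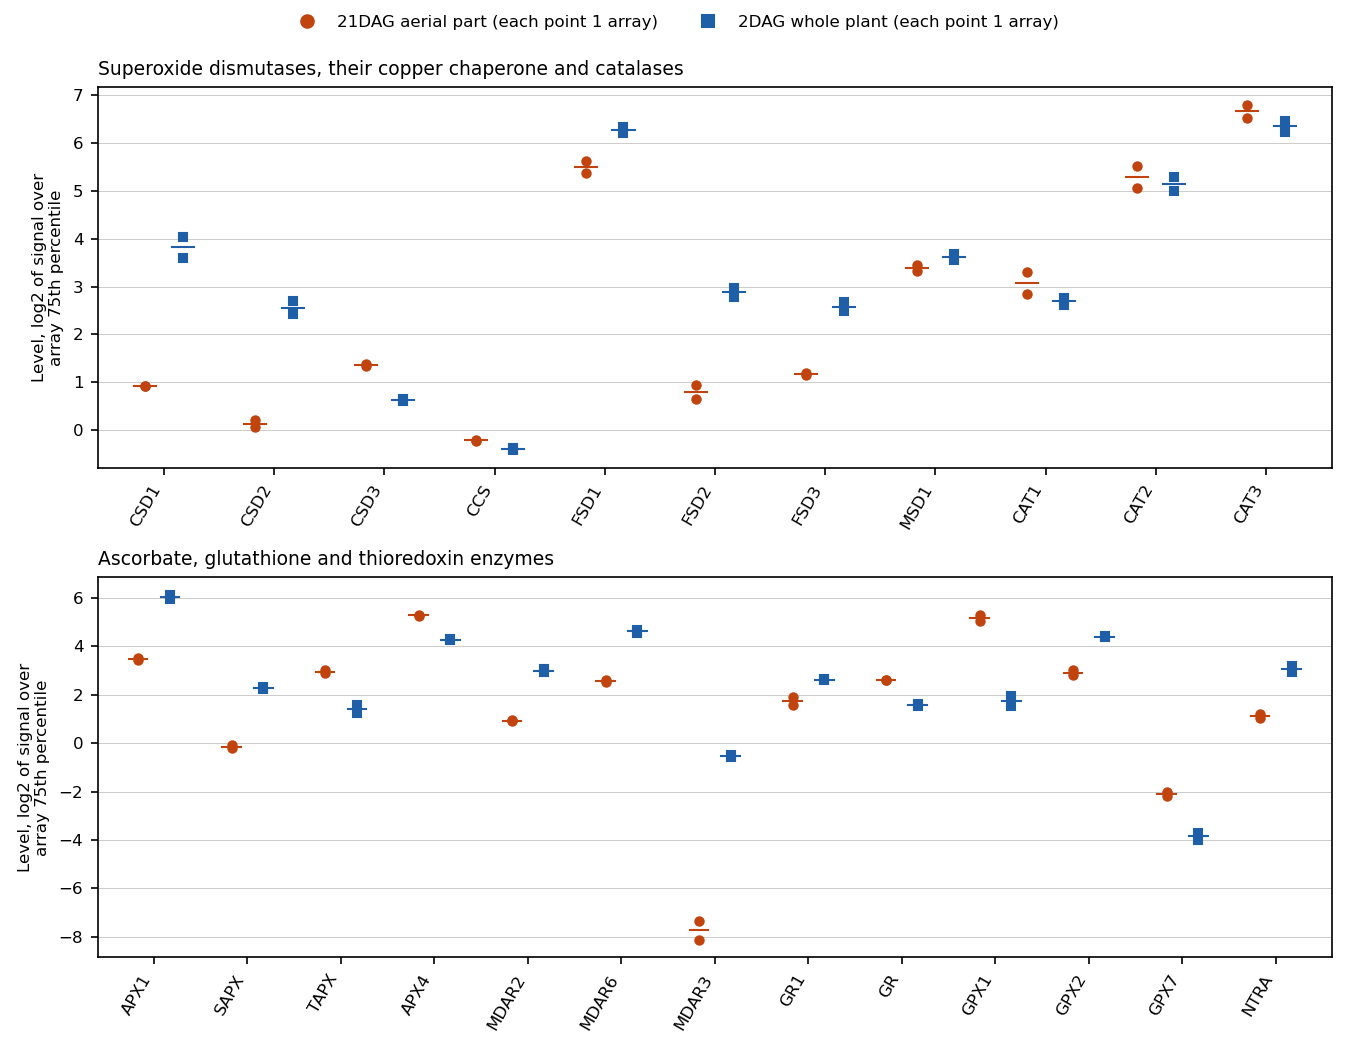
Level (log2 of signal over the array 75th percentile) of superoxide dismutases, CCS and catalases (upper panel) and of ascorbate, glutathione and thioredoxin enzymes (lower panel) on each array; circles are 21DAG, squares 2DAG, short lines group means of 2 arrays. CSD1, CSD2, APX1, SAPX and MDAR3 are lower at 21DAG, TAPX, GPX1, GPX7 and GR are higher, and the arrays of CAT2 overlap between groups.

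Thioredoxins of the plastid f and m types rose in part. TRXF1, which activates carbon fixation enzymes in light, had levels of 4.73 on both arrays in the aerial part, against 2.87 and 3.05 in 2-day plants. TRXF2 rose by 1.89, TRX-M4 by 1.32 and TRX-M1 by 1.08, while TRX-M3 did not pass (0.17 ± 0.07). The family had 15 members tested, of which 4 rose and 3 fell at least 2-fold, the falls being those of TRX-Y1, also of plastids (-2.22), TRX5 (-2.01) and TH7, at least 54.3-fold lower. NTRA, which reduces thioredoxins of the cytosol and mitochondria, fell by 1.93 ± 0.12, and the plastid NTRC differed by 0.05 ± 0.10. Respiratory burst oxidases, which make superoxide at the cell surface, were 4 tested. RBOHC, of root hairs, fell by 4.41 ± 0.12 and RBOHB was at least 5.82-fold lower. RBOHD (-0.19 ± 0.14) and RBOHF (-0.18 ± 0.08), known from shoots, did not pass. With spike-in scaling RBOHD (-0.47, adjusted p = 0.0393 in limma) and RBOHF (-0.46, adjusted p = 0.0254 in limma) both did.

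Several detoxification families had more falls than rises. Of 25 tau glutathione transferases, 3 rose and 15 (60%) fell at least 2-fold, with a median of -1.34, where 21.1% of all loci fell so. The symbol GSTU12 brought in both AT1G69920 (-0.16) and AT5G41210 (0.17), neither of which passed. Whether each is of the tau class was not tested. GSTU25 had levels of -5.74 and -6.34 in the aerial part, against 2.28 and 2.05 in 2-day plants, and GSTU22 fell by 7.14 ± 0.29. Both 21DAG arrays lay far under both 2DAG arrays. GSTU18 (1.8) and GSTU23 (1.2) rose; the family had 1 rise of 2-fold without 21DAG replicate 1 and with spike-in scaling. The 13 phi forms were split, with 5 rises and 6 falls of at least 2-fold, or 3 rises with normexp or spike-in scaling. Of 56 UGT glycosyltransferases, 5 rose and 28 (50%) fell at least 2-fold (median -1.06), led by UGT76E2, at least 97.6-fold lower, and UGT76B1 (-7.17, well above background on 1 of the 2 21DAG arrays). Laccases, which oxidise phenolics such as lignin units, gave 0 rises and 8 falls of at least 2-fold among 16, or 4 falls with normexp. LAC7 had levels of -5.22 and -5.70 in the aerial part, against 1.60 and 1.5 in 2-day plants, LAC8 was at least 36.5-fold lower, and LAC17 (-0.19) did not pass. Members of these families are close relatives, and which of them a probe measures was not tested.

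Transcription factor families differed in balance. The BBX and CONSTANS-like family had 11 rises and 3 falls of at least 2-fold among 28, or 5 falls with spike-in scaling. BBX16 stood at 2.39 and 1.40 in the aerial part, against -2.70 and -1.69 in 2-day plants, and BBX15 rose by 2.54. BBX20 fell by 5.30. The 2 21DAG arrays lay close for some members, such as BBX15 (3.83 and 3.79), and far apart for others. BBX31, which fell, had -1.37 and -3.19 there, and COL9, which did not pass, had -3.49 and -1.10. NF-Y subunits, of CCAAT-binding complexes, had 10 rises and 4 falls of at least 2-fold among 29. Falls numbered 2 without 21DAG replicate 2 and 1 with normexp. The largest rises were those of NF-YC12 (3.44 ± 0.12), with levels of -0.08 and -0.36 in the aerial part, against -3.57 and -3.75 in 2-day plants, and NF-YA5 (2.92 ± 0.13). NF-YA6, NF-YA7 and NF-YA9 rose by 2.18, 1.54 and 1.72. The largest fall was that of NF-YB5 (-3.24 ± 0.34, well above background on 1 of the 2 21DAG arrays). Of 7 DOF factors tested, 5 rose and 0 fell, and CDF1 (2.88) and CDF3 (2.08), of the cycling DOF group, were among the 4 that rose at least 2-fold. CDF2 of the same group did not pass (0.36 ± 0.38).

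Factors that respond to cold, ethylene and stress included large rises. In the ERF and DREB family 14 rose and 5 fell at least 2-fold among 41, or 3 fell with normexp. DREB1A, which switches on cold-regulated genes, had levels of 1.0 and 1.23 in the aerial part, against -4.41 and -3.90 in 2-day plants, a 38.5-fold rise, and its close relative CBF1 rose by 3.73. ERF2 rose by 5.59 (well above background on 1 of the 2 2DAG arrays). RAP2.11 and RAP2.6 were at least 49.4-fold and 49.5-fold lower. WRKY70 had levels of 1.38 and 2.05 in the aerial part, against -2.41 and -2.55 in 2-day plants. The 58 tested WRKY genes had 13 rises and 20 falls of at least 2-fold, or 7 and 12 with normexp. NAC019 rose by 6.11, with levels of -0.17 and 0.05 in the aerial part, against -6.18 and -6.17 in 2-day plants. Among 77 NAC genes, 15 rose and 21 fell at least 2-fold, or 9 and 11 with normexp. The root cap genes NAC015 (BRN1) and NAC070 (BRN2) were at least 40.5-fold and 50.9-fold lower.

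Heat shock factors had 1 rise and 8 falls of at least 2-fold among 19, or 0 and 5 with normexp: HSFA7B and HSFA6B were at least 6.96-fold and 10.9-fold lower, and the rise, HSFA6A (1.7), was lost without 21DAG replicate 1. The 26 GATA factors had 0 rises and 6 falls of at least 2-fold (23.1%, near the 21.1% of all loci). GATA23, known from lateral root founder cells, was at least 16.1-fold lower, and GATA2 was lower by 3.15 on the log2 scale. MYB factors had 17 rises and 37 falls of at least 2-fold among 94, or 10 and 20 with normexp. MYB40 was at least 55.7-fold lower, MYB76 and MYB0, which starts leaf hairs, at least 19.4-fold and 23.1-fold higher. LBD factors had 10 rises and 11 falls of at least 2-fold among 28, or 3 and 5 with normexp. LBD16, of lateral root initiation, was at least 49.5-fold lower, and LBD39 was higher by 1.52. Among bHLH factors of the iron deficiency response bHLH38 rose by 6.17, while bHLH39, BHLH100 and BHLH101 were at least 49.6-fold, 218-fold and 234-fold higher. These 4 are close paralogues, and cross-signal between their probes was not tested.

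**Figure D5:**
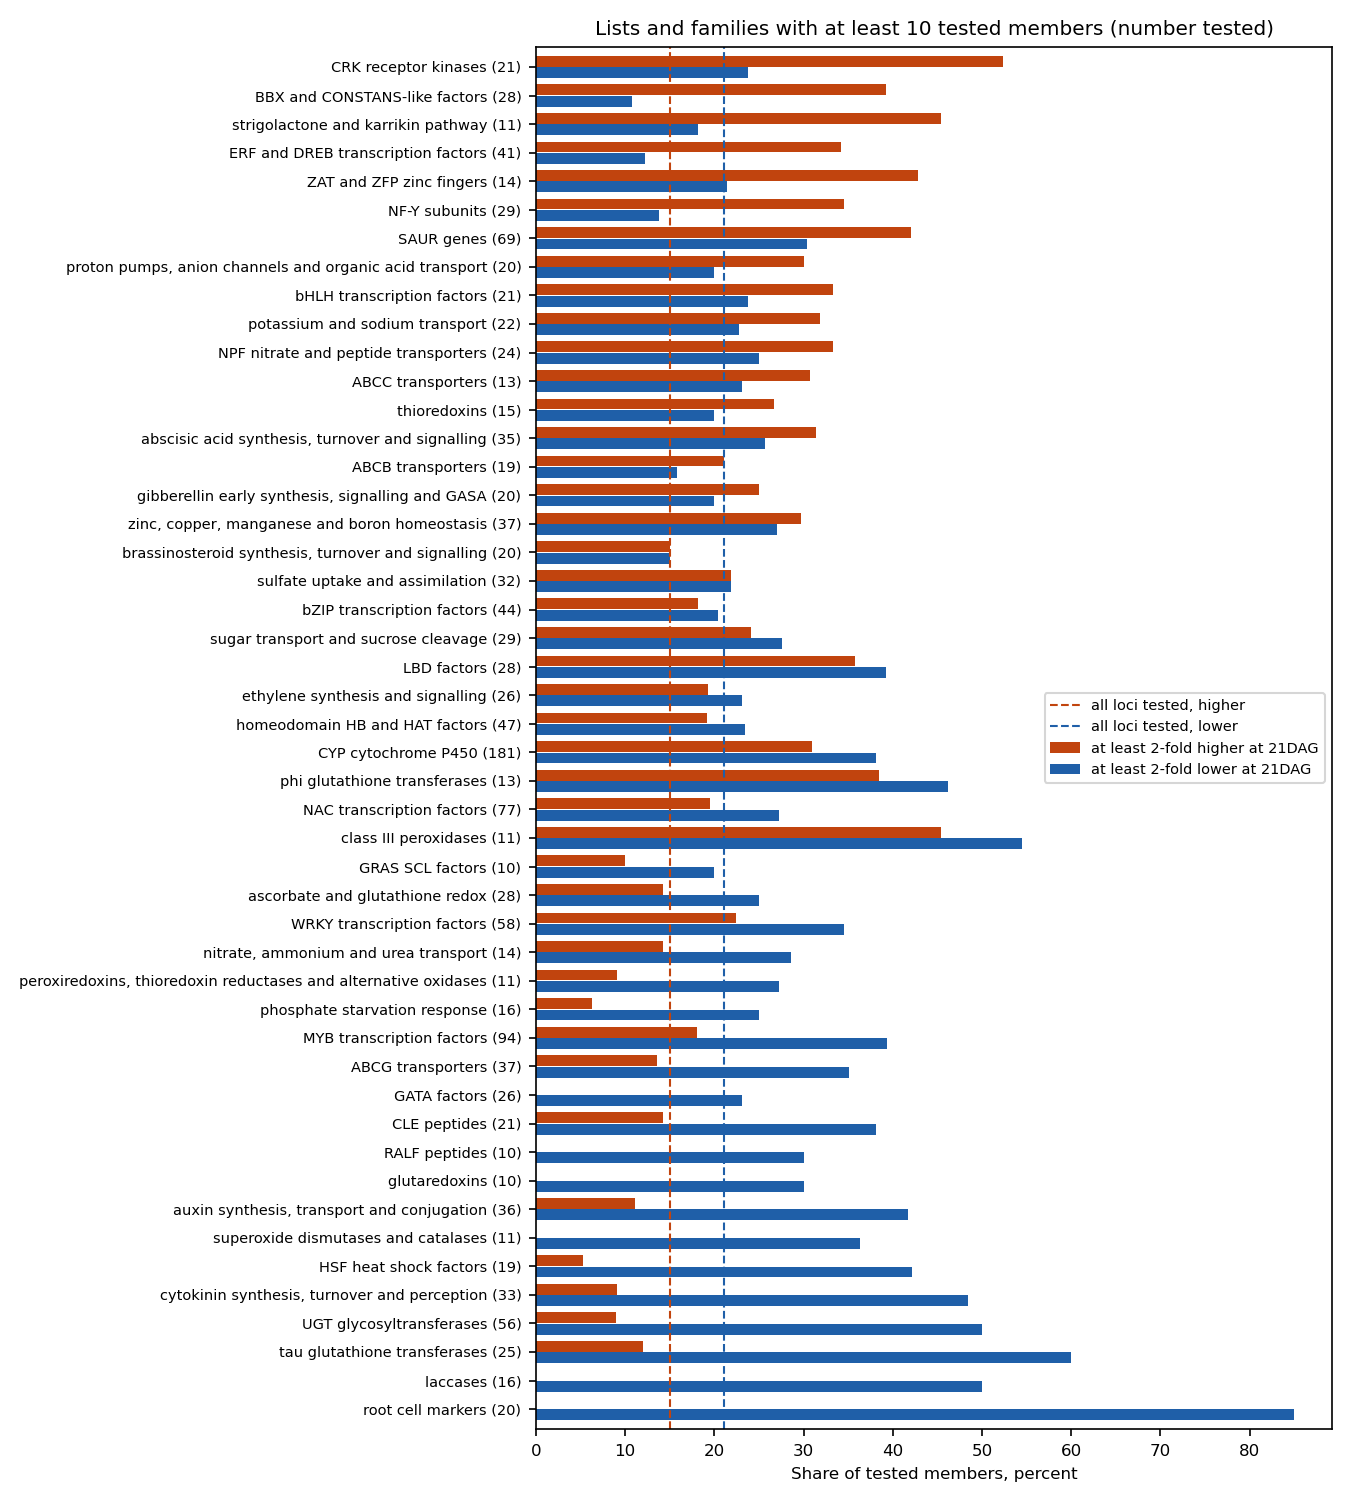
Share of tested members, in percent, that rose (upper bar of each pair) or fell (lower bar) at least 2-fold at 21DAG, for the lists and families shown, each with at least 10 tested members (number in parentheses); dashed lines give the same shares over all loci, 15.0% and 21.1%. Rows are ordered by the share that rose minus the share that fell. CRK kinases and the BBX and CONSTANS-like family, equal on this order, stand at the top, and root markers, laccases and tau glutathione transferases at the bottom.

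Growth and signalling families showed changes in both directions. Of 69 SAUR genes, which promote cell expansion downstream of auxin, 29 rose (42.0%) and 21 fell (30.4%) at least 2-fold. SAUR65 had levels of 1.52 and 1.30 in the aerial part, against -3.01 and -2.89 in 2-day plants, and its neighbour in name SAUR64 rose by 3.07. SAUR11 and SAUR37 were at least 115-fold and 139-fold lower. SAUR genes of 1 group are near-identical, so the member behind a signal is uncertain. Of 21 CRK receptor kinases, 11 rose and 5 fell at least 2-fold (3 fell with normexp). CRK21 rose by 6.17, with levels of 1.26 and 1.12 in the aerial part, against -5.40 and -4.56 in 2-day plants. CLE signalling peptides had 3 rises and 8 falls of at least 2-fold among 21, or 1 and 3 with normexp and 1 and 10 with spike-in scaling. CLE6 was at least 20.6-fold lower, and CLE22 rose by 2.58. ABCG transporters gave 5 rises and 13 falls of at least 2-fold among 37, or 3 and 8 with normexp. ABCG35 fell by 5.83 and ABCG37, which exports an auxin precursor and phenolics from roots, by 5.57, while ABCG13, known from flower cuticle, rose by 4.68. ABCG13 is not particular to flowers here: its levels were -1.10 and -1.11 in young leaves, against -1.83 and -1.58 at 21DAG. Cytochrome P450 genes were 181 tested, with 56 rises and 69 falls of at least 2-fold, or 44 falls with normexp. CYP71B4 rose by 9.86 (well above background on 1 of the 2 2DAG arrays), CYP706A6 was at least 175-fold higher, and CYP96A3 and CYP82F1 were at least 143-fold and 118-fold lower.

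Over all loci detected on the 4 arrays, the next rises after the 5 largest were AT1G47400 (8.13 ± 0.22), AT5G05250 (7.97 ± 0.19), AT1G47395 (7.50 ± 0.30), HIS1-3 (7.36 ± 0.36) and COR15B (7.23 ± 0.79). HIS1-3 is a drought-induced linker histone and COR15B a cold-regulated chloroplast protein with a close paralogue. The next falls after the 5 largest were AT5G57625 (-8.94 ± 0.16), UNE11 (-8.59 ± 0.45), AT3G49960 (-8.46 ± 0.36), the beta-glucosidase BGLU21 (-8.41 ± 0.64) and AT5G64100 (-8.39 ± 0.22). None of these genes had overlapping groups, and the 10 genes passed the test with any 1 array left out.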

How the data were processed

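Per the labels, total RNA was amplified from oligo(dT) primers into Cy3-labelled cRNA and put on 1-colour Agilent arrays. Per the file headers, the deposited scanner files hold linear intensity values from Agilent Feature Extraction; the processed signal was background-subtracted and detrended within each array by that software, with no scaling between arrays. The authors' deposited value table holds the same intensity times 1 factor per array, empty below background; the factor's basis is not given in the sources used here. The series' 2DAG and 21DAG labels set the groups.

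From the scanner files, control and outlier spots were left out (19 probes lost to an outlier spot), spots of a probe averaged, log2 taken and each array's 75th percentile subtracted. A probe was kept where some group had both of its arrays flagged well above background, and the brightest stood for its locus. limma 3.58.1 (R 4.3.3; lmFit, eBayes, 2-sided) fitted 4 group means over 8 arrays, with Benjamini-Hochberg adjustment over 20621 loci; the code was tested on simulated data. The number of arrays limits precision (median standard error 0.11). A bound sets the brighter group's mean against the higher of the dim probe's own signal and the lowest signal well above background.

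Of 484 members of 22 lists, 470 matched the gene tables, 10 symbols did not pair with their locus and 4 were not on the array. Another 34 families were matched by symbol, less 17 symbols shared by unrelated genes. Members and lists were chosen with earlier results of these data known. The rule named the 4 largest rises and falls of a list of at least 2-fold, all members of lists of at most 12, 2 each per family and 10 each over all loci; other members were named after their values were seen. Some members and 1 family are not reported here. Between 21DAG and 2DAG, samples with the same replicate number did not deviate together (r = -0.06), so the numbers were not taken as pairs. Same-numbered 21DAG and leaf arrays, which share the fit's spread, correlated at 0.354 (young), 0.306 (mature) and 0.251 (young with mature), and 2DAG with leaves near 0 (-0.0059 and -0.022). The 15 alternatives changed background correction, scaling, filter, probes, values, arrays, variance model, replicate block and left-out arrays.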

Additional observations from a re-analysis of the deposited data

Results flagged for a closer look

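Probes without a locus in the annotation were kept out of every comparison above. Of 9211 such probes 4574 were tested, and 241 were well above background on both 21DAG arrays and on neither 2DAG array. The reverse held for 300. Over the 20621 loci, 376 were detected only at 21DAG and 1146 only at 2DAG. At least 2-fold higher were 941 of the 4574 probes and lower 689. Of the 20621 loci, 3103 (15.0%) were higher and 4358 (21.1%) lower by as much. Whether probes and loci differ in these shares was not tested. The probes are unnamed here.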

How the results depend on the processing

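Rises and falls of at least 2-fold numbered 3103 and 4358, and 3125 and 4366 with the replicate block, under which CAT1 (0.38, adjusted p = 0.0445 in limma), CAT3 (0.32, 0.0121) and RBOHF (-0.18, 0.0429) passed and CCS (0.0559) and OLEO1 (0.0503) did not. With normexp background correction they were 2273 and 2765, 2937 and 2927 with the authors' deposited values, and 2655 and 3096 when all 4 arrays had to be above background. Leaving out 1 array gave 2928 to 3149 and 4092 to 4340. With spike-in scaling, which moved the median of all loci by -0.28, 4471 loci rose and 9715 fell in all (31.5% of calls upward, against 46.4%). Of 292 named results, 269 kept direction and call under every alternative that gave a value, and 23 did not, 12 of them when 1 array was left out. Medians that changed sign were those of WOX factors (-1.27; 0.035 with normexp, 0.27 with the 4-array filter, 0.093 with no filter, 1.02 with the value table), class III peroxidases (-3.37; 1.43 with the 4-array filter, 1.49 with the value table) and RALF peptides (-0.57; 0.070 with no filter), where the filters change which members are tested. CCS turned to -0.095 and CAT2 to -0.15 with spike-in scaling, RBCS1A to -0.10 with quantile scaling, and CAT2 ranged from -0.10 to 0.37 with 1 array left out; the cause was not tested. The 2-fold counts of lists moved by over 1.5 times in 45 of 112 cases with normexp, 29 with the 4-array filter, 28 with the deposited values and 16 with spike-in scaling. A slide block was not run as a fit of its own: the 4 arrays share 1 slide, and the fit on them alone gave 3130 and 4395. Signal near background limits what can be said of 21DAG levels of root and seed genes.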
